A study of Mus musculus with 2 samples.

Results

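Retinoic acid signaling was followed through 9 genes, namely *Rara*, *Rarb*, *Rarg*, *Cyp26a1*, *Crabp1*, *Crabp2*, *Dhrs3*, *Stra6* and *Aldh1a2*, of the 37273 genes that GENCODE release M1 places on the mouse genome build mm9. They were chosen by name, as receptors, carriers and enzymes of the pathway, with earlier results of these data known. The data were non-polyadenylated (NPA) RNA of 2 cell types, sequenced with strand kept, in 1 library each. The embryonic stem cells (ESCs) were of the male mouse line R1 at passage 18, kept with leukemia inhibitory factor and serum on mitomycin-treated mouse embryonic fibroblasts, so that feeder RNA can be present. The ESC-derived neuronal progenitor cells (NPCs) came from the same R1 line. They spent 4 days as embryoid bodies without leukemia inhibitory factor, were replated on poly-L-ornithine and fibronectin in a medium with insulin, transferrin and selenium, and were gathered on day 7. Neither culture description names retinoic acid as an added agent.

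Retinoic acid is made from vitamin A (retinol) and works as a ligand of nuclear receptors. Retinol enters cells through a membrane receptor, is oxidized first to retinal and then to retinoic acid by dehydrogenases, and the product is carried by small cellular binding proteins to the receptors or to the enzymes that degrade it. The receptors RAR alpha, beta and gamma bind DNA as pairs with retinoid X receptors (RXRs), at direct repeats of a short half-site. Without ligand they hold corepressors, and with ligand they recruit coactivators. In cultures of ESCs the pathway is known as a driver of both neural and extraembryonic endoderm differentiation. Among its best known direct targets are *Rarb* and *Cyp26a1*, a receptor and a degrading enzyme of the pathway itself.

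The ESC library held 4271306 reads and the NPC library 4399729. For each gene, the exon reads on its own strand were counted and are given as raw reads, as RPM (reads scaled to the library total, where 1 read equals 0.234 RPM in ESCs and 0.227 RPM in NPCs) or, to compare genes, as RPKM (RPM for each kilobase of exon). With 1 library per cell type no test was possible, and every ratio compares these libraries and not the cell types. The 95% intervals, exact Poisson for counts, Clopper-Pearson for shares and conditional binomial for ratios, cover only the counting error of independent reads. Since reads carried no molecular identifiers, copies of the same fragment count separately, and the intervals can be too narrow. Log2 ratios are NPC minus ESC in RPM with 1 read added in each library, and genes are called apart beyond 2-fold when they had at least 10 reads in the libraries together. In bulk RNA, fewer cells of a type and less RNA per cell cannot be told apart. Because poly(A) RNA was depleted, the counts of coding genes describe what was left in this fraction and not their mRNA level. The authors describe the fractions as enriched but not exclusive. They propose partly degraded mRNA as the likelier source of such exon reads and leave other sources open.

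The genes of the pathway differed between the libraries in both directions. The degrading enzyme *Cyp26a1* and the retinol receptor *Stra6* had 3 and 0 reads in ESCs but 135 and 44 in NPCs, and *Crabp2* and *Rarb* also lay more than 2-fold higher in NPCs. *Rarg* and *Crabp1* lay more than 2-fold higher in ESCs, at 274 against 100 and 30 against 2 reads. Of the 8 genes with at least 10 reads, 4 were thus more than 2-fold higher in NPCs, where 24.6% of the 14859 genes with as many reads were, and 2 were more than 2-fold higher in ESCs, where 12.8% of all genes were. Their median log2 ratio was 0.76, beside 0.34 over all 14859 genes, whose quartiles were -0.39 and 0.99. With no minimum of reads the median of all 9 was -0.043, below the 0.28 of all genes under the same setting. Together the 9 genes held 482 reads in ESCs and 427 in NPCs, or 113 and 97.1 RPM.

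**Figure D1:**
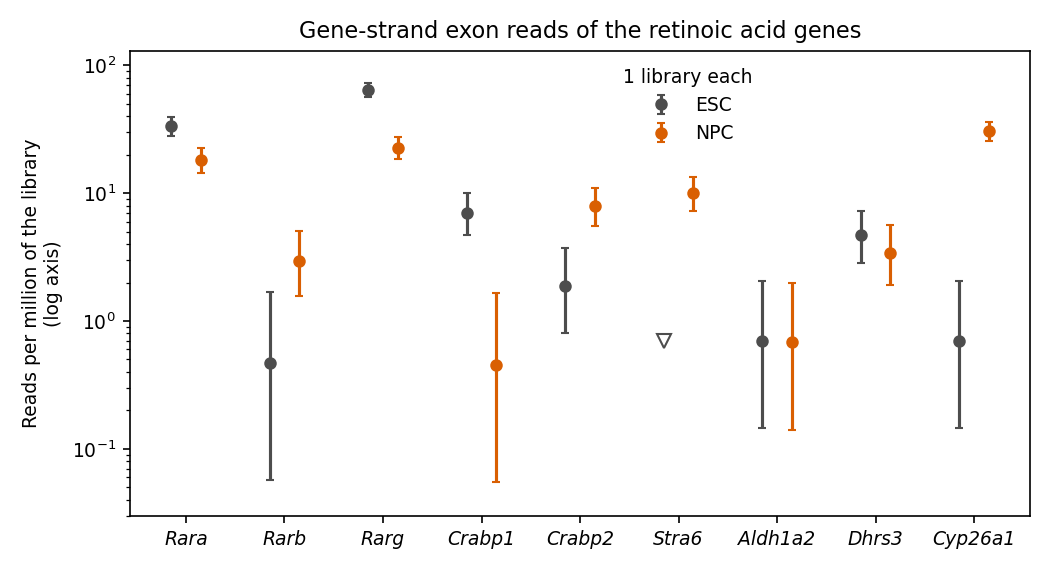
Level of each of the 9 genes in RPM, on a log axis, in the ESC library (gray) and the NPC library (orange), with exact 95% Poisson intervals of the count. The open triangle marks *Stra6* in ESCs, with 0 reads, at the 0.702 RPM that 3 reads are worth. *Cyp26a1* and *Stra6* lie far higher in NPCs, and *Crabp1* far higher in ESCs.

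*Stra6* encodes the cell surface receptor that takes up retinol from its carrier in blood. It had 0 reads in ESCs, which allows up to 0.702 RPM, and 44 reads or 10.0 RPM in NPCs. The NPC level was at least 14.2-fold higher against a floor of 3 reads, while the 95% interval of the ratio of the counts, which also covers the error of the NPC count, began at 11.1, and the log2 ratio ranked 44 from the top of the 14859 genes. The reads of NPCs began at 34 distinct positions, so that no single fragment carried the count. Over the introns of the gene, on the same strand, 3 reads lay in ESCs and 17 in NPCs.

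Of the 9 genes, *Aldh1a2* and *Dhrs3* encode enzymes that act on retinal, and both had few reads. *Aldh1a2*, a retinal dehydrogenase that makes retinoic acid in the embryo, had 3 reads in each library, or 0.702 RPM in ESCs and 0.682 RPM in NPCs, and was too low for a call. A difference in *Aldh1a2* was not detectable at this depth, as the ratio of NPCs to ESCs had an interval of 0.130 to 7.25. *Dhrs3*, which reduces retinal back to retinol, had 20 reads in ESCs and 15 in NPCs, a ratio of NPCs to ESCs of 0.728 (0.347 to 1.50) that included no difference.

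The 2 cellular retinoic acid binding proteins differed in opposite directions. *Crabp1* had 30 reads in ESCs and 2 in NPCs, or 7.02 and 0.455 RPM. It was 15.5-fold higher in ESCs (3.92 to 133), with a log2 ratio of -3.41 that ranked 100 from the bottom. *Crabp2*, whose product hands retinoic acid to the receptors, had 8 reads in ESCs and 35 in NPCs, or 1.87 and 7.96 RPM, and was 4.25-fold higher in NPCs (1.94 to 10.6). The binding protein with more reads was therefore *Crabp1* in ESCs and *Crabp2* in NPCs. Per length, *Crabp1* stood at 8.76 RPKM and *Crabp2* at 1.42 RPKM in ESCs, and at 0.567 and 6.02 RPKM in NPCs.

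Of the receptors, *Rarg* was the highest in both libraries and was more than 2-fold lower in NPCs than in ESCs. Its 274 reads (64.1 RPM) in ESCs stood against 100 reads (22.7 RPM) in NPCs, and it was 2.82-fold higher in ESCs (2.24 to 3.59). *Rara*, the most widely expressed receptor of the family, stood at 142 reads (33.2 RPM) in ESCs against 80 reads (18.2 RPM) in NPCs. It was 1.83-fold higher in ESCs (1.38 to 2.44) and stayed within 2-fold, at a log2 ratio of -0.86, but passed 2-fold under 4 alternatives, among them each start counted once (-1.04). *Rarb* had only 2 reads in ESCs and 13 in NPCs, or 0.468 and 2.95 RPM, with a ratio of 6.31 and a wide interval (1.43 to 57.6).

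The 3 receptors together held 418 reads in ESCs and 193 in NPCs, or 97.9 and 43.9 RPM, and were 2.23-fold higher in ESCs (1.88 to 2.66). *Rarg* made up 65.6% (60.8 to 70.1%) of the receptor reads in ESCs and 51.8% (44.5 to 59.0%) in NPCs, while *Rara* made up 34.0% (29.4 to 38.7%) and 41.5% (34.4 to 48.7%). *Rarb* went from 0.478% (0.0580 to 1.72%) to 6.74% (3.63 to 11.2%) of the receptor reads. Scaled by exon length the shares were alike, with *Rarb* at 0.618% of the receptor RPKM in ESCs and 8.62% in NPCs.

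*Cyp26a1*, the cytochrome that oxidizes retinoic acid for removal, had the highest ratio of the 9 genes, apart from *Stra6*, which had no reads in ESCs. It had 3 reads (0.702 RPM) in ESCs and 135 reads (30.7 RPM) in NPCs, a ratio of 43.7 (14.6 to 214), and its log2 ratio of 5.04 ranked 63 from the top of all genes. The count rests partly on repeated start positions, since the 135 reads began at 65 distinct positions. With each start position counted once the log2 ratio was 3.77.

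In order of RPKM, *Rarg* came first in ESCs at 15.6 (13.8 to 17.6), followed by *Crabp1* at 8.76 (5.91 to 12.5) and *Rara* at 7.27 (6.12 to 8.57). The intervals of *Crabp1* and *Rara* overlapped. *Dhrs3* and *Crabp2* followed at 1.60 and 1.42 RPKM, and the other 4 genes lay below 1 RPKM with overlapping intervals. In NPCs *Cyp26a1* came first at 17.3 RPKM (14.5 to 20.5). *Crabp2*, *Rarg* and *Rara* followed at 6.02, 5.53 and 3.98 RPKM, where the interval of *Rarg* overlapped those of both others. The interval of *Rara* lay above that of the next gene, *Stra6*, at 1.72 RPKM. Both first places lay above the median gene with at least 10 reads, which stood at 4.75 RPKM in ESCs and 6.54 RPKM in NPCs.

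**Figure D2:**
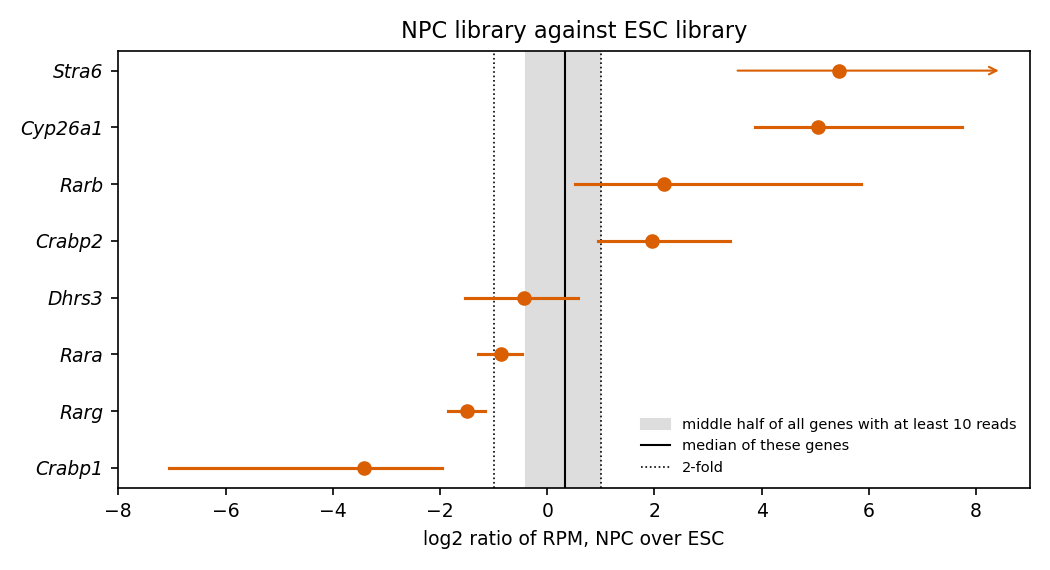
Log2 ratio of RPM, NPC over ESC, of the 8 genes with at least 10 reads. Points have 1 read added in each library, and lines are 95% conditional binomial intervals of the ratio of the counts without it, open to the right for *Stra6*. The gray band spans the quartiles of the 14859 genes and the solid line their median of 0.34. Of the 8 points, only that of *Dhrs3* has an interval that reaches the median line.

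*Rarb* and *Cyp26a1*, both higher in NPCs, carry a direct repeat close to an annotated start site. The start sites of the 9 genes were searched on both strands in mm9, from 250 bases before to 50 bases after each annotated transcript start, for 2 half-sites in the same direction with 1, 2 or 5 bases between them. The half-site AGGTCA was accepted together with the variant AGTTCA and with their forms that begin with another base, which are GGGTCA for the first and GGTTCA for the second. These matches are shown because both belong to known target genes of the receptors. Each is written 5′ to 3′ on the strand of the gene with the half-sites in capitals and 3 further bases on either side, while the coordinates span the repeat alone.

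Rarb: aagGGTTCAccgaaAGTTCActc

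Cyp26a1: agaTGAACTttgggTGAACTaat

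The *Rarb* repeat has 5 bases between the half-sites. It begins at position -57 from the start of the transcript Rarb-202, at chr14:17408027-17408043 on the minus strand. The *Cyp26a1* repeat also has a spacing of 5, begins at position -32 from the only annotated start of the gene, at chr19:37772266-37772282 on the plus strand, and runs on the opposite strand, so that its half-sites read as TGAACT here. A repeat with this spacing lay in 52 of the 70051 windows of annotated transcript starts, or 0.0742%. The spacings of 1 and 2 lay in 0.223% and 0.118% of the windows and in none of the windows of the 9 genes. A match describes these letters and was not tested as a binding site.

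Farther out, to 2500 bases before the start, the spacing of 5 lay in 0.928% of all windows, the spacing of 1 in 2.03% and that of 2 in 2.90%. In this wider window *Cyp26a1* held a second repeat and *Rarg*, *Rara* and *Crabp2* held matches as well. The sequences with the widest spacing and the *Crabp2* match are given for comparison with the pair above, in the same notation.

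Cyp26a1 upstream: cagGGGTCAcaggcGGGTCAggc

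Rara: gcgAGTTCAgcaagAGTTCAgcc

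Rarg: cagGGTTCAaagtgAGGTCAcgg

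Crabp2: cccAGTTCAccAGGTCAggg

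The upstream *Cyp26a1* repeat began at position -1899 (chr19:37770399-37770415, plus strand). The *Rara* repeat began at position -404 from the start of the transcript Rara-004 (chr11:98821322-98821338, plus strand) and the *Rarg* repeat at position -487 from the start of Rarg-003 (chr15:102081248-102081264, minus strand), where a match with a spacing of 1 overlapped it. The *Crabp2* match had a spacing of 2 and began at position -1141 (chr3:87751447-87751460, plus strand). *Rara* also held a match with a spacing of 1 at position -2102. Genes with the spacing of 5 in this window included *Rara* and *Rarg*, which were lower in NPCs, beside *Rarb* and *Cyp26a1*, which were higher.

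Over all 22367 protein-coding genes, 38 held a repeat with a spacing of 5 in the narrow window, and 26 of these had at least 10 reads. Of the 26 genes, 11 lay more than 2-fold higher in NPCs and 3 in ESCs, with a median log2 ratio of 0.62. *Rarb* and *Cyp26a1* are among the 11. Over the 12711 protein-coding genes with as many reads, 26.2% were more than 2-fold higher in NPCs and 11.6% in ESCs, and the median was 0.40. In the wide window the 243 genes with this repeat had 61 higher in NPCs and 28 higher in ESCs, and their median of 0.29 was below that of all protein-coding genes. This set of genes was drawn up after the values of the 9 genes were seen.

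The reads were then placed on the exons, since each receptor gene has several annotated starts that lead to different first coding exons. In *Rarg*, the first exon of the downstream-start transcript Rarg-002 held 17 reads in ESCs and 11 in NPCs. The first exon of the upstream transcripts Rarg-001 and Rarg-006 held 2 and 0 reads, and their exon with the first coding bases held 7 and 0. In *Rara*, the first exon of Rara-004 held 9 ESC and 2 NPC reads, and the exon with the first coding bases of the upstream transcripts held 14 in each library. The first exon of Rarb-202, next to the repeat shown above, held 0 reads in both libraries. The 13 *Rarb* reads of NPCs lay instead in exons that its 3 annotated transcripts share, 5 of them in the last one.

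In *Rarg* and *Cyp26a1*, which gave most of the reads, most read starts lay 3′ of the midpoint of the joined exons. Over all 9 genes 28.6% (24.6 to 32.9%) of the read starts in ESCs lay 5′ of the midpoint of the joined exons, and 34.2% (29.6 to 39.0%) in NPCs. Over all protein-coding genes with at least 10 reads, the shares were 49.4% and 47.9%. *Rarg*, which gave 270 of the 475 starts in ESCs, had 23.0% (18.1 to 28.4%) there in ESCs and 28.1% (19.4 to 38.2%) in NPCs. *Cyp26a1* had 18.9% (12.6 to 26.7%) in NPCs, and 76 of its 135 reads touched the last exon. *Rara* had 47 of 139 starts (33.8%) in ESCs and 34 of 77 (44.2%) in NPCs, and *Stra6* 30.0% (16.6 to 46.5%) in NPCs. *Dhrs3* lay near the share of all genes, with 10 of 20 starts in ESCs and 7 of 15 in NPCs. *Crabp2* went the other way, with 71.4% (53.7 to 85.4%) of its 35 starts in NPCs before the midpoint. The joined exons count every alternative first exon toward the 5′ side, which *Rara*, *Rarg* and *Stra6* have in number, and the part of these exons in the shares was not tested.

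**Figure D3:**
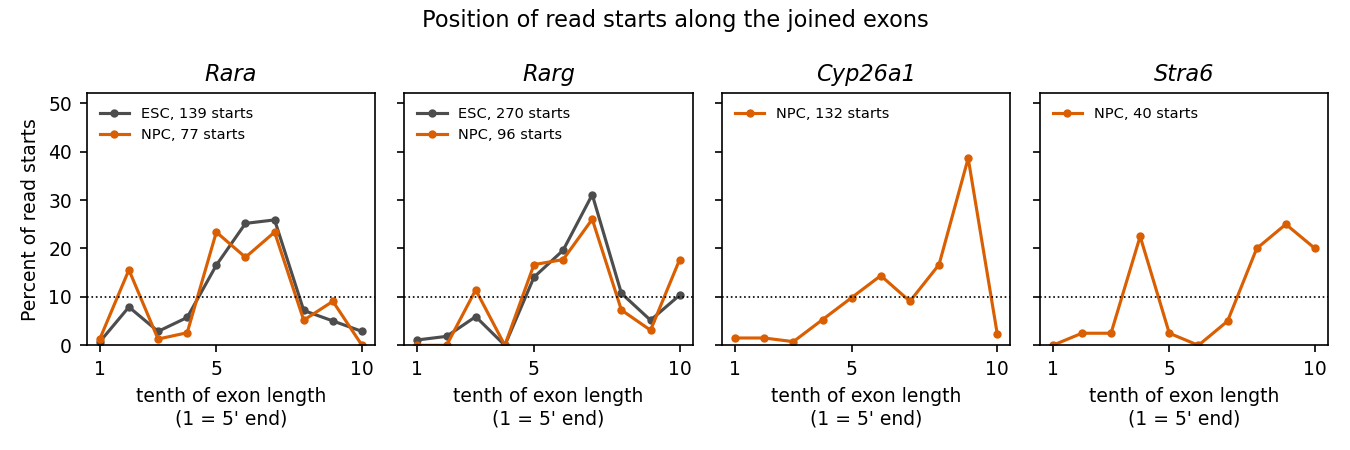
Percent of read starts in each of 10 equal parts of the joined exon length, from the 5′ end (1) to the 3′ end (10), for *Rara* and *Rarg* in both libraries and for *Cyp26a1* and *Stra6* in NPCs, where alone they had at least 10 starts. The dotted line is an even spread of 10%. *Rara* and *Rarg* peak in the middle parts in both libraries, although the *Rara* profiles differ in part 2, with 11 of 139 starts in ESCs and 12 of 77 in NPCs, and *Cyp26a1* peaks in part 9, with 51 of 132 starts.

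The profile along *Rarg* peaked in the same part of the exons in both libraries, with 84 of 270 starts in ESCs and 25 of 96 in NPCs in part 7. Most of its starts lay in coding bases, 201 in ESCs and 72 in NPCs, while the stretch 3′ of the coding part held 58 and 23. In *Cyp26a1* the coding part held 128 of the 132 starts in NPCs. *Stra6* had 8 of its 44 reads of NPCs in the exon with the first coding bases and 15 in the last exon.

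Reads in introns made up 15.6% (12.7 to 18.8%) of the gene-strand reads of the 9 genes in ESCs and 14.9% (11.9 to 18.4%) in NPCs, beside 14.1% and 13.0% over all protein-coding genes with at least 10 reads. The order of these shares depended on the counting. With each start counted once the 9 genes lay below all genes, at 18.6% against 24.2% in ESCs and 17.2% against 22.3% in NPCs, and with sequences found once they lay at 13.1% against 15.3% in ESCs. The genes differed widely. In *Cyp26a1* 0 of the 135 reads of NPCs lay in introns only, in *Rarg* 5.84% (3.44 to 9.19%) in ESCs and 4.76% (1.56 to 10.8%) in NPCs, and in *Rara* 15.0% and 15.8%. *Rarb* had the most intron reads of the 9 genes, 26 in ESCs and 22 in NPCs, or 92.9% (76.5 to 99.1%) and 62.9% (44.9 to 78.5%) of its reads. Shares as high came from few reads in *Aldh1a2*, with 7 of 10 reads in ESCs and 6 of 9 in NPCs, in *Crabp1*, with 4 of 6 in NPCs, and in *Stra6*, with 3 of 3 in ESCs. The introns of *Rarb* span 384733 bases against 3293 bases of exon, and their reads, unlike the exon reads, were not higher in NPCs. On the opposite strand, the whole span of *Rarb* held 18 reads in ESCs and 25 in NPCs. Whether the intron reads come from *Rarb* transcripts was not tested.

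Other genes of the pathway were grouped by role, in lists that hold 58 genes besides the 9 and were also chosen with earlier results known. Of the 38 with at least 10 reads, 16 lay more than 2-fold higher in NPCs and 2 in ESCs, beside 24.6% and 12.8% of all genes, and their median log2 ratio was 0.58, beside 0.34. In the uptake, transport and storage of retinol, 2 of 4 genes with enough reads were more than 2-fold higher in NPCs. *Rbp4*, the retinol carrier of blood, went from 3 to 41 reads, a ratio of 13.3 (4.23 to 67.0). *Ttr*, the partner of that carrier in blood, went from 0 to 37 reads and was at least 12.0-fold higher against the floor of 3 reads, with an interval that began at 9.26. *Dgat1*, an acyltransferase that can esterify retinol, had 26 ESC and 47 NPC reads. The storage enzyme *Lrat* had 0 and 2 reads.

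Of the dehydrogenases that act on retinol and retinal, 7 of 15 had enough reads and 4 of these were more than 2-fold higher in NPCs, beside 24.6% of all genes. The 4 became 1 with each start counted once and 2 under both other scalings or with sequences found once. *Rdh10*, the main enzyme of the retinol step in the embryo, had 35 ESC and 104 NPC reads and was 2.88-fold higher in NPCs (1.95 to 4.36). *Rdh13* had 100 and 208 reads, a ratio of 2.02 (1.58 to 2.59). *Rdh12* at 2 and 8 reads and *Dhrs4* at 9 and 20 reads passed 2-fold with intervals that included no difference. The most abundant of the list with both libraries summed, *Adh5* and *Rdh11*, had 657 and 180 reads in ESCs and 470 and 197 in NPCs, within 2-fold. *Aldh1a1* had 0 reads in both libraries and *Aldh1a3* had 6 and 2, so that none of the 3 retinal dehydrogenases of the Aldh1a family reached 10 reads.

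Of the other degrading enzymes, *Cyp26b1* had 1 and 2 reads and *Cyp26c1* 0 in both libraries. Neither relative of *Cyp26a1* thus reached 10 reads. *Fabp5*, which can carry retinoic acid to another nuclear receptor, had 41 ESC and 33 NPC reads, and that receptor, *Ppard*, had 105 and 82, both within 2-fold. Only 11 of the *Fabp5* reads in ESCs and 11 in NPCs carried a sequence found once in mm9.

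Of the RXR partners, *Rxra* lay in the opposite direction to *Rarg*. It stood at 110 reads (25.8 RPM) in ESCs against 271 (61.6 RPM) in NPCs and was 2.39-fold higher in NPCs (1.91 to 3.01), but it was no longer beyond 2-fold with each start counted once or when scaled by the median of ratios. *Rxrb* had 249 and 213 reads, a ratio of 0.830 (0.688 to 1.00), and *Rxrg* 0 and 1. Of the 10 coregulators 3 were more than 2-fold higher in NPCs and none in ESCs, with a median log2 ratio of 0.39, close to the 24.6% and the median of 0.34 over all genes. The 3 were the coactivators *Crebbp*, with 85 and 473 reads (a ratio of 5.40, 4.28 to 6.89), and *Ncoa2*, with 91 and 318 (3.39, 2.68 to 4.33), and the ligand-dependent corepressor *Nrip1*, with 51 and 232 (4.42, 3.25 to 6.10). The most abundant, the coactivator *Ncoa3*, had 1065 reads in ESCs and 1323 in NPCs. *Tbl1xr1*, with 501 and 587, and the corepressor *Ncor1*, with 453 and 602, came next, and all of these lay within 2-fold.

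Genes known to respond to retinoic acid split as well. Of 13 with enough reads, 6 were more than 2-fold higher in NPCs and 2 in ESCs, beside 24.6% and 12.8% of all genes, with a median log2 ratio of 0.67. The homeobox genes *Meis1* and *Meis2* went from 4 to 65 and from 2 to 46 reads, ratios of 15.8 (5.87 to 59.6) and 22.3 (5.84 to 190). *Lamb1*, a laminin chain of basement membrane, had 585 reads in ESCs and 10367 in NPCs, a ratio of 17.2 (15.8 to 18.7). The zinc finger genes *Zfp703* and *Tshz1* went from 2 to 38 and from 1 to 27 reads.

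Higher in ESCs were *Stra8* and *Gbx2*. *Stra8*, best known as the retinoic acid responsive gene of germ cells entering meiosis, had 131 ESC and 0 NPC reads and was at least 45.0-fold higher in ESCs against the floor of 3 reads, with an interval that began at 36.1. *Gbx2*, a homeobox gene of the midbrain-hindbrain border, had 23 and 10 reads and was 2.37-fold higher in ESCs. *Btg2*, an antiproliferative gene and the second most abundant of the list, had 395 and 509 reads. The Hox genes *Hoxb1* and *Hoxd4* had 0 reads in both libraries.

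**Figure D4:**
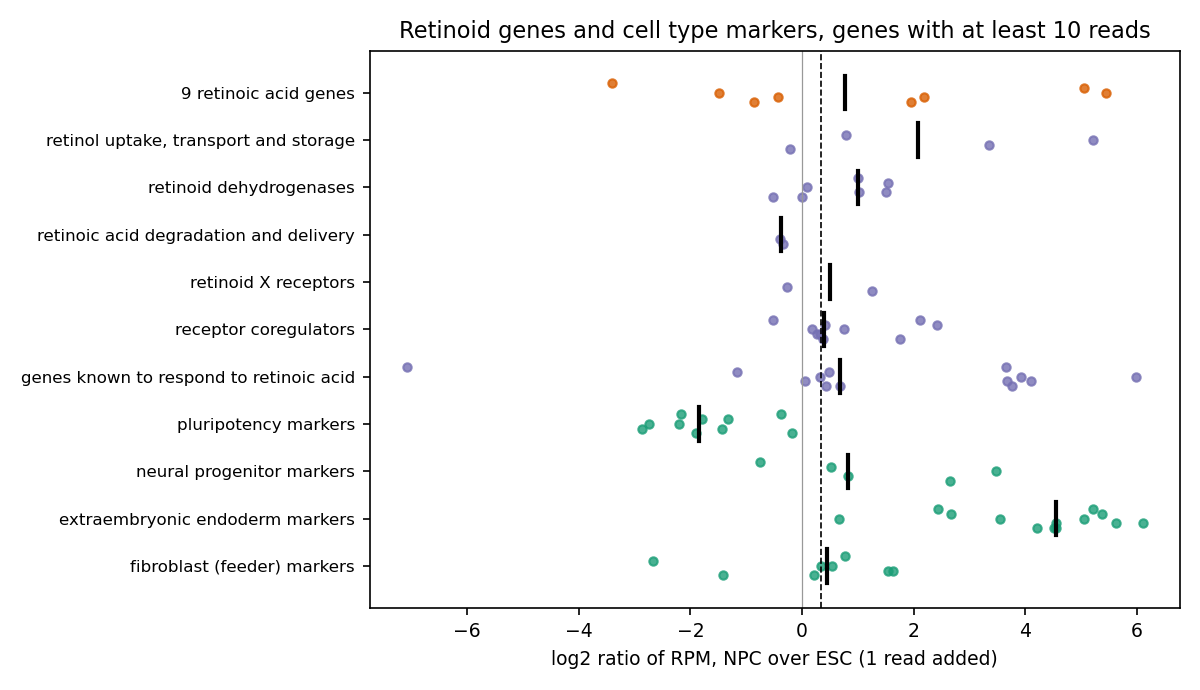
Log2 ratio of RPM, NPC over ESC with 1 read added in each library, for every gene with at least 10 reads in the 9 retinoic acid genes (orange), the other pathway lists (purple) and the marker lists (green). Black bars are medians, and the dashed line is the median of all 14859 genes, 0.34. The endoderm markers have the highest median, at 4.55, and the pluripotency markers the lowest, at -1.85.

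The labels were checked against markers of the cell types. All 10 pluripotency markers had log2 ratios below 0, and 8 were more than 2-fold higher in ESCs, beside 12.8% of all genes. The list summed to 2411 RPM in ESCs and 677 RPM in NPCs. The most abundant, *Pou5f1*, had 2623 and 724 reads, so that the NPC library still held pluripotency RNA. Of 12 neural progenitor markers, 11 are annotated and 5 had enough reads. Of these 5, *Pax6* and *Zic1* were more than 2-fold higher in NPCs, at only 1 to 12 and 1 to 22 reads, beside 24.6% of all genes. The neural list summed to 64.9 RPM in ESCs and 89.8 RPM in NPCs. *Otx2*, the most abundant of them, had 109 and 161 reads. *Nes* had 66 and 121 and *Msi1* had 99 and 60, both within 2-fold. In ESCs 5 of the 11 had 0 reads. Of these, *Sox3* and *Pou3f2* had 5 reads each in NPCs, *Neurog2* had 3 and *Fabp7* had 2.

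Markers of extraembryonic endoderm were far more abundant in the NPC library. Of 13 such markers, 12 were more than 2-fold higher in NPCs, beside 24.6% of all genes. Their median log2 ratio was 4.55, and the list summed to 619 RPM in ESCs and 11063 RPM in NPCs. *Col4a1*, a basement membrane collagen and the most abundant with both libraries summed, had 856 and 20753 reads. The transcription factors *Gata6* and *Sox17* had 8 and 8 reads in ESCs and 459 and 383 in NPCs, and *Afp* had 1 and 141. None of the 13 was at 0 in either library. These markers differed in the same direction as *Stra6*, *Cyp26a1*, *Rarb*, *Crabp2*, *Rbp4*, *Ttr* and *Lamb1*, which are listed here because they were higher in NPCs. The pathway genes more than 2-fold higher in ESCs, *Rarg*, *Crabp1*, *Stra8* and *Gbx2*, went the opposite way. The part of the endoderm markers in the result was not tested. *Ttr* and *Rbp4* are known to be expressed in visceral endoderm, and *Lamb1* in parietal endoderm.

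Fibroblast markers, which feeder cells would bring into the ESC library, were low in both. Of 9 such markers 8 had enough reads, and 2 were more than 2-fold higher in each direction. Of all genes, 24.6% were so in NPCs and 12.8% in ESCs. The list summed to 55.3 RPM in ESCs and 66.1 RPM in NPCs. *Col1a2*, the most abundant with both libraries summed, had 51 and 165 reads, and *Twist1* had 2 and 8. The *Twist1* ratio of 3.88 had an interval of 0.775 to 37.5 that included no difference. Higher in ESCs were *Thy1*, with 79 and 12 reads, and *Lox*, with 38 and 14, a ratio of ESCs to NPCs of 2.80. None was at 0 in either library. Their part in the levels of *Crabp1*, *Rara* and *Rarg* in ESCs was not tested.

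Genes with levels like those of the 2 most abundant receptors were looked up. Measured by the Euclidean distance in log2(RPKM + 1) over the 2 libraries, the protein-coding genes nearest to *Rarg* were *Gm8112*, *Pml* and *Mtmr7*, at distances of 0.0647, 0.0891 and 0.102. *Pml*, with 444 reads in ESCs and 168 in NPCs, stood at 16.1 and 5.90 RPKM. Nearest to *Rara* were *Tdp1*, *Wrap53* and *Fnbp1*, at distances of 0.0402, 0.0408 and 0.0444, and *Tdp1* had 165 and 94 reads. Each distance rests on 2 points per gene.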

How the data were processed

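NPA RNA of ESCs and NPCs was sequenced as 1 library each. The authors depleted poly(A) and ribosomal RNA, aligned the reads to mm9 with Bowtie (version not given in the sources used here), kept 1 placement for reads with several, and removed mitochondrial, ribosomal and repeat reads. They deposited the coordinates and strand of each read, with 48 nt of sequence. The interval given by the coordinates was under 48 nt for 3.77% of ESC reads and 4.23% of NPC reads. A sequence with a single exact match in mm9 was carried by 78.2% of ESC reads and 83.2% of NPC reads, and there were 1531216 and 1848069 distinct start positions. The deposited lines hold no other measured value. Counts were made here from the deposited placements, as reads overlapping the exons of a GENCODE M1 gene by at least 1 base on its strand. Reads that overlap exons of several genes count for each.

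RPM used the library totals. A count of 0 was taken as up to 3 reads per library. The 9 genes, the lists and the markers were chosen with earlier results of these data known. Named were the 9 genes, the list genes more than 2-fold apart with at least 10 reads, the 2 with the most reads of each list, and the 3 genes nearest to each of the 2 most abundant members. *Lrat*, *Aldh1a1*, *Aldh1a3*, *Cyp26b1*, *Cyp26c1*, *Rxrg*, the Hox genes and single markers were added after their values were seen. Some list genes that this rule names are not reported here. *Sox1* has no entry under that symbol in GENCODE M1. For *Dab2*, which has 2 identifiers, the longer was used. Alternatives counted each start once, scaled by the median of ratios or outside the 10 top genes, assigned reads by 5′ end, kept sequences found once or exon bases of no other gene, added 0.5 read, or used no minimum or 50 reads. Counting, ratios, intervals and the repeat search were tested on simulated data. The work used matplotlib 3.10.9, numba 0.67.0, pysam 0.24.0, SciPy 1.17.1 and NumPy 2.4.6 under Python 3.11.15.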

Additional observations from a re-analysis of the deposited data

Results flagged for a closer look

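Apart from the counts over *Rarb* given beside its introns, reads on the strand opposite to a gene enter none of the comparisons above. Over the whole span of *Rarb*, introns included, 18 such reads lay in ESCs and 25 in NPCs, above the 3 reads that a count of 0 allows. GENCODE M1 annotates no gene on that strand there, and on the gene strand the introns held 26 and 22 reads. Opposite-strand reads also exceeded 3 over *Rara* in NPCs, with 6, over *Dhrs3* in ESCs, with 4, and over *Stra6* in NPCs, with 4, where *Ccdc33* is annotated on the opposite strand. There was no control library, and these counts were not tested.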

How the results depend on the processing

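Each of the 8 genes with at least 10 reads kept the sign of its log2 ratio under every alternative that gave it a value. The 4 genes higher in NPCs stayed at 4 except with at least 50 reads, where 3 of the 9 genes were left and 1 was higher in NPCs and 1 in ESCs. *Rara* passed 2-fold when each start was counted once (-1.04), when scaled by the median of ratios (-1.20) or outside the 10 top genes, and with sequences found once (-1.02), which gave 3 genes higher in ESCs. Scaling by the median of ratios moved the median of all genes from 0.34 to -0.0034, so that 15.7% lay higher in NPCs and 18.7% in ESCs. The median log2 ratio of the 8 genes, 0.76, was 0.45 with each start counted once, 0.42 with the median of ratios, 0.79 with 0.5 read added, -0.043 over all 9 with no minimum and -0.86 over the 3 with at least 50 reads. *Cyp26a1* had a log2 ratio of 3.77 with each start counted once. Of the other pathway genes, 9 were higher in NPCs and 1 in ESCs with at least 50 reads. With no minimum, 21 of all 58 were higher in NPCs and 5 in ESCs. Over all genes, 1714 were higher in NPCs with each start counted once and 2335 with the median of ratios, against 3658, and 3955 were higher in ESCs with no minimum and 1107 with at least 50 reads, against 1908. The dehydrogenases higher in NPCs, 4 in all, were 1 with each start counted once, 2 under both other scalings, with sequences found once or with at least 50 reads, and 7 with no minimum. *Rxra* was no longer beyond 2-fold with each start counted once or with the median of ratios. With at least 50 reads, 3 of the genes known to respond to retinoic acid were higher in NPCs and 1 in ESCs. Under the same setting, 0 of the genes of retinol uptake, transport and storage were higher in NPCs. No paired analysis was possible because each cell type had 1 library. Depth limits the low genes most, and *Aldh1a2*, below 10 reads, was given no call.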
